A study of Mus musculus with 12 samples.

Results

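The cells described here are the Wfdc10-high cells of E12 mouse gonads that lacked the -KTS form of WT1. They were proposed under the label of arrested pre-supporting cells, and they were chosen by measured values. A cell of a -KTS KO library was taken if it had at least 1000 detected genes, at most 10% mitochondrial UMIs, at least 8 UMIs of Wfdc10, at least 1 UMI of Cpa1 or Wfdc13, and fewer than 10 UMIs in all of the germ cell genes Dppa5a, Pou5f1, Ddx4 and Dazl. A UMI, or unique molecular identifier, marks 1 captured RNA molecule. The rule took 2900 of the 20612 -KTS KO cells without germ gene signal, out of 75181 such cells in the whole series. They were compared with the 17050 other gonadal somatic cells of the same 4 libraries, which left out cells with 10 or more UMIs of endothelial or of immune genes and cells rich in hemoglobin RNA.

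Supporting cells are the somatic cells that surround germ cells, and they become Sertoli cells in a testis or granulosa cells in an ovary. Both arise from pre-supporting cells, which descend from the epithelium and progenitors of the genital ridge and pass through a state shared by XX and XY gonads. In XY gonads SRY raises SOX9 in these cells and starts the Sertoli programme, whereas in XX gonads WNT4, RSPO1 and FOXL2 act in the pre-granulosa programme. WT1 is a zinc finger protein made in forms with and without the residues lysine, threonine and serine (KTS) between its last zinc fingers, and the form without them is the one that binds DNA tightly.

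The series held gonads of wild-type (WT), -KTS KO and +KTS KO embryos at E12, with 2 libraries for each genotype and sex. The -KTS KO embryos were homozygous for a germline allele that makes no -KTS transcript, so every cell of the embryo carried it. The +KTS KO embryos were homozygous for an allele that makes no +KTS transcript. All lines were kept on a mixed B6CBAF1/JRj background, and some libraries pooled gonads of more than 1 embryo. A single stage was sampled, so that whether a cell was arrested or was passing through a state could not be read from these libraries. The methods of the study give a range of tail somite numbers around this stage, and differences in age between libraries were not tested. UMIs were counted at the 3′ end of transcripts, where the forms of Wt1 are the same, so the level of Wt1 is no check of the genotype.

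The 4 -KTS KO libraries held 109076740 to 116127249 UMIs and 5052 to 6256 cells past the limits on genes and mitochondrial UMIs. XX -KTS KO library 2 stood apart, with 10491 barcodes of which 6256 passed, and 1480 of its 4224 other gonadal somatic cells had under 5000 UMIs. The Wfdc10-high cells were deeper than the rest, with a median of 18700 UMIs against 13699, and their median mitochondrial share was 1.87% to 2.55% against 1.82% to 2.39%. Scrublet, a doublet caller, put 5.65% to 9.45% of them among its highest scores against 2.95% to 6.20% of the other cells. Of the 2900 barcodes, 60 also occurred in another library and 4 of those passed the gate there as well. The part of doublets in the results was measured only by leaving out the cells with the highest Scrublet scores, and the shared barcodes were kept throughout.

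Of the genes that the gate required, Wfdc10 and Wfdc13 lie in the same cluster and Cpa1 on another chromosome (build mm10). Wfdc10, on chromosome 2 at 164656046 to 164657368 on the plus strand, encodes a small protein with a whey acidic protein four-disulfide core, the fold of secreted protease inhibitors. It stands in a cluster in which 15 genes of this family were listed between positions 164176327 and 164745931, and Wfdc13 starts 27738 bases after it, at 164685107. Cpa1, on chromosome 6 at 30639218 to 30645363, encodes the digestive enzyme carboxypeptidase A1, best known from the pancreas. The other markers given with the cells are Runx1, on chromosome 16 at 92601466 to 92826149 on the minus strand, which encodes a Runt-domain transcription factor, and Wnt6, on chromosome 1 at 74771892 to 74785322, which encodes a secreted WNT ligand.

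Of 29 genes looked up in the RefSeq promoter table (GRCm38.p6) 24 matched. The 250 bases before the annotated starts of 4 of them are shown because these genes were high in the same cells. The 6 letter strings named after them were searched on both strands, and capitals mark those found.
Wfdc10, chr2:164655796-164656045, plus strand: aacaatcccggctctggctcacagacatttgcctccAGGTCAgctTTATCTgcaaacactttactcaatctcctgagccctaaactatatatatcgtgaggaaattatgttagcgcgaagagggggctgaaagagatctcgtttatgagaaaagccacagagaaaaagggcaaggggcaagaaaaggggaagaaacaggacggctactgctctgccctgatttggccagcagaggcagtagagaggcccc
Cpa1, chr6:30638968-30639217, plus strand: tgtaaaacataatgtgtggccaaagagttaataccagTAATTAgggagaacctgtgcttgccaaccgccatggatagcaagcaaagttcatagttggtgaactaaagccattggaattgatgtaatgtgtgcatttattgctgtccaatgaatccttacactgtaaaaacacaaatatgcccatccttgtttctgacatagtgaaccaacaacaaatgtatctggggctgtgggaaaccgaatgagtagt
Runx1, chr16:92697330-92697579, minus strand: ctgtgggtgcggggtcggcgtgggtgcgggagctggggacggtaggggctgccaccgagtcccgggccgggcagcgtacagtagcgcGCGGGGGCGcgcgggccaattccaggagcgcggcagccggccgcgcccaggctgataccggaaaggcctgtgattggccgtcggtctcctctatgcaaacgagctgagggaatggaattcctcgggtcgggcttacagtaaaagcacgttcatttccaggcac
Wnt6, chr1:74771642-74771891, plus strand: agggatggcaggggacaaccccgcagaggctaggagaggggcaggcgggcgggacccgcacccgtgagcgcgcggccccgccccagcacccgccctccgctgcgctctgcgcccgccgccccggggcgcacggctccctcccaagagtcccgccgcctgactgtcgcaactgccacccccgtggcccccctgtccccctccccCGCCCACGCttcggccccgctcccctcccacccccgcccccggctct
The Wfdc10 window, which lies in an intron of the overlapping gene Wfdc9, held AGGTCA, the letters of a nuclear receptor half-site, 214 bases before the start, and AGATAA, the letters of a GATA site, on the other strand 205 bases before it. The Cpa1 window held TAATTA, the core letters of many homeodomain sites, 213 bases before the start. The Runx1 window held GCGGGGGCG 163 bases before the start of its shorter transcripts, and the Wnt6 window held GCGTGGGCG on the other strand 47 bases before the start, both of them letters bound by EGR1 and by the -KTS form of WT1 in vitro. A second Runx1 window, chr16:92826075-92826324, before the start of its longer transcripts, held none of the strings searched and is not shown. No single string was found in all 4 windows shown, and TGTGGT, the letters of a Runx site, in none of them. Among 32851 windows of this length in the table, 14% held the half-site letters, 9.99% the GATA letters, 4.84% the homeodomain letters, 2.57% the string of the Runx1 window, 0.536% that of the Wnt6 window and 14% the Runx letters. The strings of the Wfdc10 window do not overlap, and all of them are a description of these letters only.

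The gate separated the genotypes. It took 730 of 5553 cells without germ gene signal in XY -KTS KO library 1, or 13.1%, and 845 of 5350 in library 2, or 15.8%. It took 776 of 4746 in XX -KTS KO library 1, or 16.4%, and 549 of 4963 in library 2, or 11.1%, so that the mean over the 4 libraries was 14.09% ± 2.45 (SD, n = 4) and XX and XY overlapped. In the 4 WT libraries the same gate took 0 to 60 cells, or 0% to 0.898%, and in the 4 +KTS KO libraries 1 to 35 cells, or 0.0142% to 0.733%. The gate used these very counts, so the shares are a description without a test. With at least 4 UMIs of Wfdc10 the -KTS KO mean was 18.29%, and with at least 16 UMIs it was 8.55%. In WT libraries these shares were 0.207% to 2.26% and 0% to 0.180%, and in +KTS KO libraries 0.0853% to 1.57% and 0% to 0.209%. With every cell thinned to 5000 UMIs and a gate of at least 3 UMIs of Wfdc10 the -KTS KO mean was 11.77%. The WT libraries were then at 0.108% to 0.833% and the +KTS KO libraries at 0.0185% to 0.467%.

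**Figure D1:**
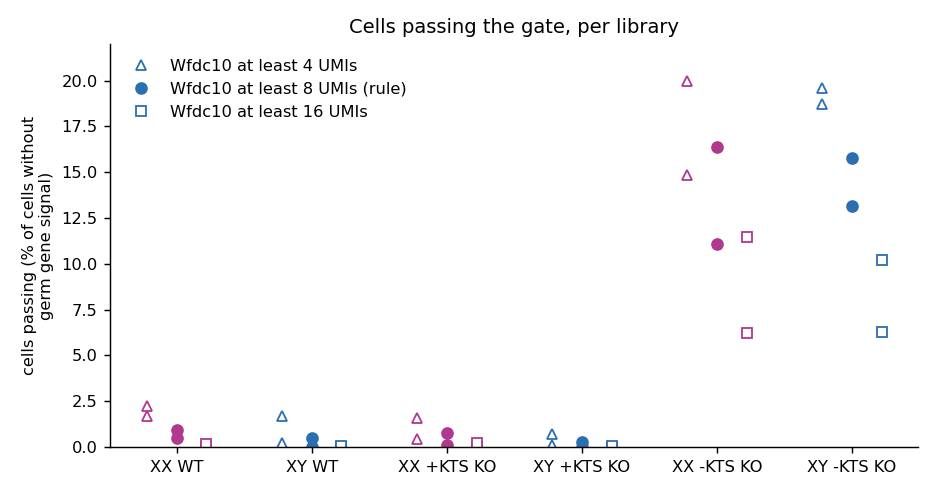
Share of cells without germ gene signal that passed the gate (vertical axis, percent), with 1 point for each library and the 6 groups along the horizontal axis. The 4 -KTS KO libraries sit between 11.1% and 16.4%, and the 8 other libraries at or under 0.898%.

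The cutoff of 8 UMIs ran through a continuous range rather than a gap. In the order XY library 1, XY library 2, XX library 1 and XX library 2, 142, 94, 82 and 74 cells had 6 or 7 UMIs of Wfdc10 and so lay just outside, and 133, 71, 66 and 76 cells had 8 or 9 and lay just inside. A further 82, 201, 108 and 167 cells had 8 or more UMIs but neither Cpa1 nor Wfdc13. Within the gate the median of Wfdc10 was 15 to 22 UMIs per cell and the highest cell had 74 to 152, whereas the few WT cells that passed had a median of 9 to 10 and at most 16 to 24. Cpa1 was present in 87.1% to 91.1% of the Wfdc10-high cells, Wfdc13 in 52.8% to 64.7%, and both in 40.4% to 55.2%. In CPM, the UMIs of a gene scaled to a common total of UMIs in each sum with TMM factors, Wfdc10 was at 1079 ± 134 (SD, n = 4) against 84.4 ± 24.4 in the other cells, Wfdc13 at 284 ± 86.4 against 16.3 ± 7.58, and Cpa1 at 1960 ± 720 against 232 ± 104. Cpa1 was also the most uneven of them between libraries, at 2784 and 2261 CPM in the XY and 1671 and 1123 CPM in the XX libraries. These 3 genes made the gate and are given without a test.

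For all other genes the UMIs of the gate's cells and of the other gonadal somatic cells were summed per library and compared within libraries. Of 14820 genes tested, 8833, or 59.6%, passed an adjusted p of 0.05, with 29.4% higher and 30.2% lower in the Wfdc10-high cells, and 17.5% both passed and differed by at least 2-fold, 8.48% higher and 9.01% lower. The median log2 fold change of all genes was -0.02. Genes entered the test with enough UMIs in either population, so a rare gene that entered through the higher one had to differ, and list counts are descriptions. Since most genes passed, a count within a list was read against these shares and the size of a change was given with it. The same cells that made the gate entered the test, so its p-values measure how steady a difference was over 4 libraries and not whether these cells are a type of their own.

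The markers that name pre-supporting cells were higher in the Wfdc10-high cells of every library, as far as the sex allowed. Runx1 was at 96.7 and 110 CPM in the XY and 95.2 and 67.8 CPM in the XX libraries, against 21.8, 18.8, 16.7 and 20.8 CPM in the other cells. The lowest gate value was thus more than 3-fold above the highest value of the other cells, and Runx1 rose by a log2 fold change of 2.24 ± 0.128 (SE; adjusted p = 4.23e-06). Wnt6 was at 211 and 242 CPM in XY and 249 and 145 CPM in XX against 31.1 to 39.0 CPM (2.63 ± 0.127, adjusted p = 2.44e-06). Gadd45g, which encodes a stress and MAP kinase adaptor that is needed for timely Sry expression, was at 1122 and 1050 CPM in XY and 639 and 694 CPM in XX against 95.1 to 227 CPM (2.40 ± 0.121, adjusted p = 2.75e-06). For all of these genes the groups did not overlap, a property that 67.3% of the tested genes shared in the looser form of lying on 1 side in every library.

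The other markers of the list were lower in abundance or less even. Nr0b1, the orphan receptor DAX1, was at 35.1 and 50.1 CPM in XY and 17.7 and 7.98 CPM in XX against 9.67, 11.3, 5.52 and 4.21 CPM in the other cells of the same libraries, so that XX library 2 overlapped with the other cells of the XY libraries (1.76 ± 0.154, adjusted p = 3e-05). Sprr2d, a cornified envelope gene of a family of near-identical copies, was at 20.5 to 26.8 CPM against 2.74 to 5.01 CPM (2.56 ± 0.135). Sry, the testis-determining gene, was at 2.14 and 1.91 CPM in the XY libraries against 0.382 and 0.439 CPM, and at 0 in the XX libraries. Lor, another cornified envelope gene, differed least, at 118 ± 42.6 against 69.2 ± 18.8 CPM (0.75 ± 0.0699). All 7 genes of the list passed upward, with a median log2 of 2.27 against -0.02 for all genes. The list was chosen with earlier results of these data known, and it was not the only list to move up, as the Sertoli, pre-granulosa, steroidogenic and digestive enzyme genes below show.

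**Figure D2:**
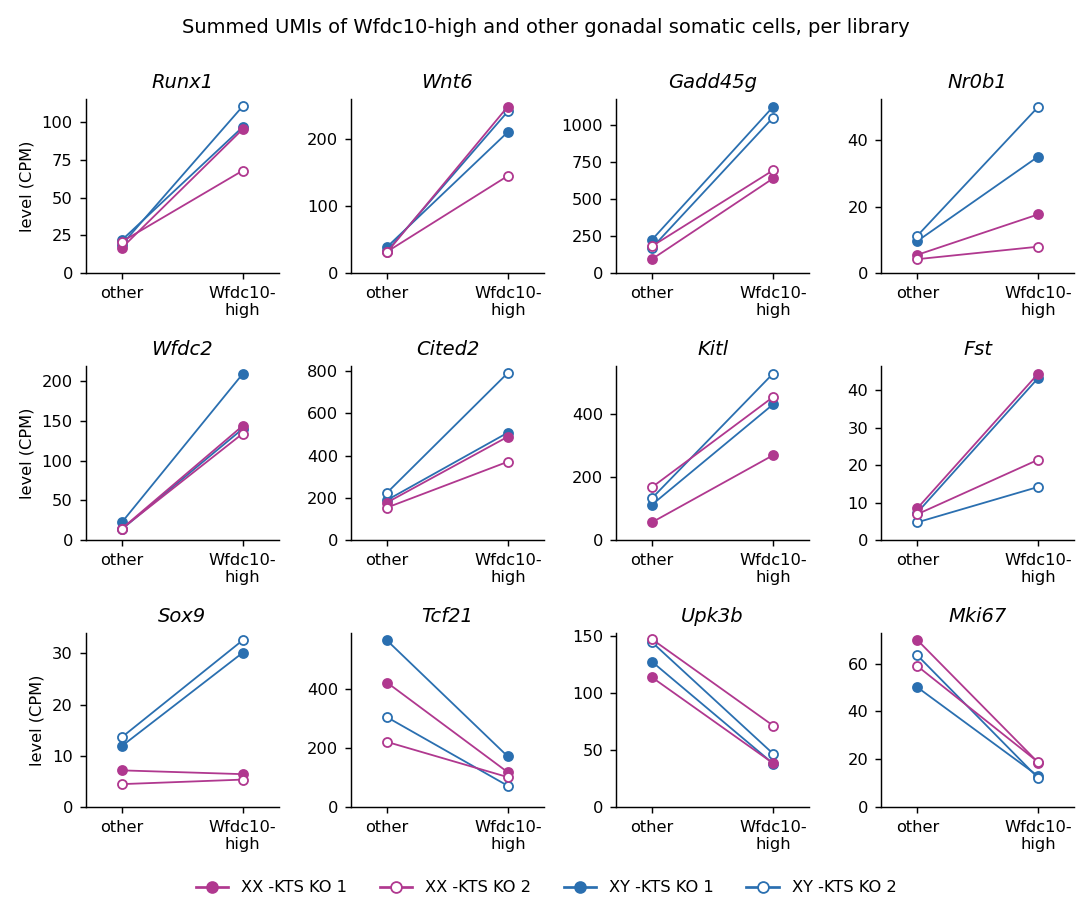
Level (CPM of UMIs summed per library, linear axes from 0) of 12 genes in the other gonadal somatic cells and the Wfdc10-high cells, with 1 line for each of the 4 -KTS KO libraries. Runx1, Wnt6, Gadd45g, Nr0b1, Wfdc2, Cited2, Kitl and Fst go up in every library, Tcf21, Upk3b and Mki67 go down in every library, and Sox9 goes up clearly only in the XY libraries.

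Seen cell by cell, the markers were not in all of the Wfdc10-high cells. After thinning each cell to 5000 UMIs, which left 2883 of the 2900 cells, Wnt6 was found in 55.0% ± 6.30 (SD over 4 libraries) against 9.25% of the other cells and 0 of 297 endothelial cells, and Runx1 in 32.5% ± 5.78 against 7.33% and 1.26%. Gadd45g was found in 81.2% ± 5.01 against 26.2% and 16.4%, and Nr0b1 in 9.57% ± 4.96 against 2.99% and 0.526%. Endothelial cells are not known for Wnt6 or Nr0b1 and had a median of 21866 UMIs before thinning, so their shares serve as the background, which for Gadd45g was high. Without thinning, Wnt6 was in 79.8% and Runx1 in 69.3% of the Wfdc10-high cells. In the thinned cells 55.7% to 71.7% had a UMI of Runx1 or Wnt6 and 14.0% to 23.9% had both. With 4 pairs of libraries an exact sign-flip test cannot reach 0.05, so these shares carry no test.

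The levels changed step by step with the amount of Wfdc10. Gonadal somatic cells of the -KTS KO were split by their Wfdc10 UMIs into 6 bins (0, 1 to 3, 4 to 7, 8 to 15, 16 to 31, and 32 or more), which held 11549, 3395, 1548, 1553, 1237 and 668 cells. Mean Runx1 over the 4 libraries was 15.5, 22.5, 34.9, 61.6, 88.9 and 109 CPM across these bins. Wnt6 was at 27.5, 37.4, 61.9, 133, 202 and 243 CPM. Both genes thus rose before the cutoff of 8 UMIs and went on rising after it. Tcf21, a bHLH factor of interstitial progenitors, was at 441 CPM without Wfdc10 and at 89.8 CPM with 32 or more UMIs, and Mki67, a proliferation gene, at 70.7 and 9.51 CPM. Upk3b, a gene of the surface epithelium, had its highest mean, 157 CPM, in cells with 1 to 3 UMIs and its lowest, 24.7 CPM, in the last bin. Wnt4, a ligand of the pre-granulosa programme, fell from 283 CPM to 206 and 214 CPM and was then at 297, 408 and 538 CPM. Wt1 stayed between 267 and 318 CPM. Deeper cells reach higher bins more easily, so these means describe both depth and Wfdc10.

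**Figure D3:**
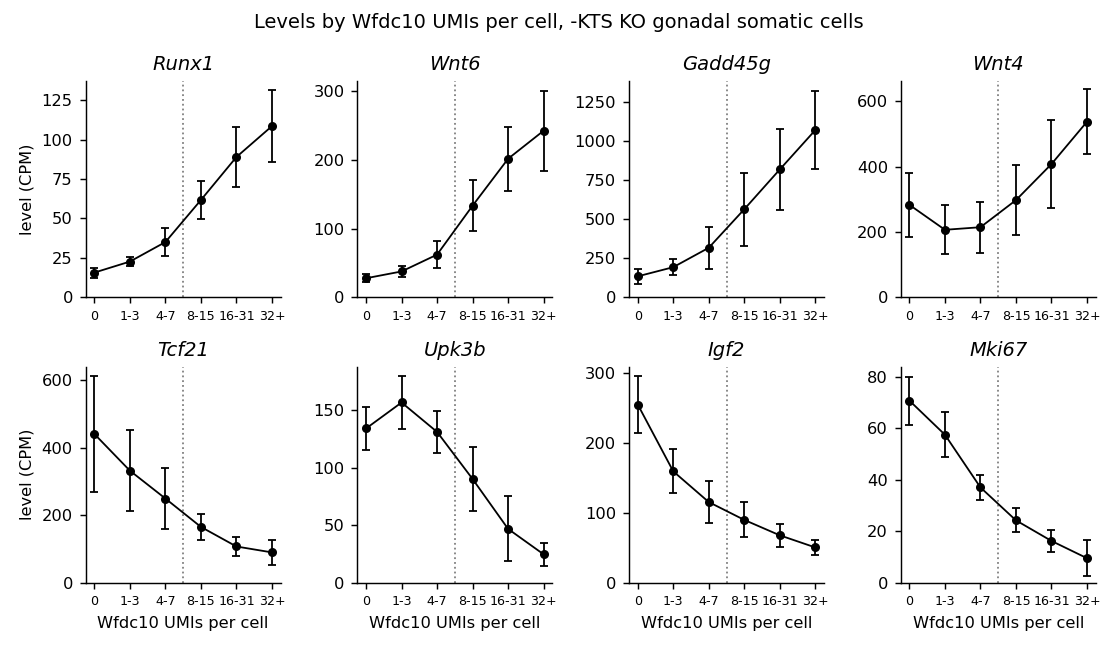
Level (CPM of summed UMIs, linear axes from 0) of 8 genes in -KTS KO gonadal somatic cells by the number of Wfdc10 UMIs in the cell. Points are means over the 4 libraries and bars are SD. Runx1, Wnt6 and Gadd45g climb over all 6 bins, Tcf21, Igf2 and Mki67 decline, Upk3b peaks at 1 to 3 UMIs and Wnt4 is lowest at 1 to 7 UMIs.

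The genes with the largest rises included further members of the WFDC cluster. Wfdc9 was at 65.2, 41.7, 35.4 and 25.7 CPM against 0.82 to 2.14 CPM (log2 fold change 4.84 ± 0.179, adjusted p = 1.37e-06). It overlaps Wfdc10 by 538 bases on the opposite strand, and the strand setting of the counting is not given in the sources used here, so its level is uncertain. Wfdc2, the gene of the epididymal protein HE4, does not overlap with it and was at 157 ± 35.2 against 16.1 ± 4.11 CPM (3.29 ± 0.0439, adjusted p = 1.36e-08). Eppin, an epididymal protease inhibitor, was at 5.68 to 11.1 CPM against 0.432 to 1.24 CPM, and Wfdc6a at 15.7 against 2.42 CPM. All 7 tested members of the family passed upward (median log2 2.84), and 11 of the 20 in the files had too few UMIs to be tested.

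Cpa1 was accompanied by other digestive enzymes, and 8 of the 10 tested genes of that list rose (median 2.24). Pnliprp2, a pancreatic lipase-related protein, was at 336, 169, 414 and 271 CPM against 72.2, 32.8, 64.4 and 79.7 CPM, and pancreatic lipase itself, Pnlip, at 41.8 ± 23.8 against 9.12 ± 5.10 CPM. The carboxypeptidase gene Cpa4 (2.18 ± 0.0760) rose too, whereas the elastase gene Cela1, at 3.41 against 2.86 CPM, did not pass. Among the genes chosen by the size of their rise were also Cga, the alpha subunit shared by the pituitary glycoprotein hormones, at 46.9 ± 24.6 against 4.76 ± 2.49 CPM, Bst2, an interferon-inducible membrane protein, at 607 ± 95.6 against 85.2 ± 24.6 CPM, and Crygc, a lens crystallin, at 25.9 against 2.91 CPM. Ccdc182, 6430710C18Rik, Nup62cl, Hsbp1l1 and Gm28085, whose roles in the gonad are not well known, were 2.84 to 3.03 higher on the log2 scale.

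Genes of the male programme were raised from very low levels. Of the 15 Sertoli genes 9 could be tested and 8 rose (median 1.94), among them Mro, at 43.9 ± 11.4 against 6.96 ± 1.70 CPM, Dmrt1, which keeps Sertoli cells male, at 16.3 ± 6.71 against 4.18 CPM, and Cst9 at 4.57 against 0.497 CPM. Sox9, the gene that directs Sertoli differentiation, was at 30.1 and 32.5 CPM against 11.9 and 13.6 CPM in the XY libraries. In the XX libraries it was at 6.41 and 5.35 CPM against 7.15 and 4.47 CPM, which is no common direction. Its pooled log2 fold change of 0.82 ± 0.233 (adjusted p = 0.0159) lost its call without XY library 1 (0.57) or without XY library 2 (0.61). Amh and Dhh, secreted products of differentiated Sertoli cells, had too few UMIs for the test. After thinning, Amh was found in 0.127% of the Wfdc10-high cells, or 4 of 2883, against 0.139% of the other cells. Only 1 of 297 endothelial cells had an Amh UMI, too few to set a background. Sox10 was found in 0 of 2883 cells, which allows a share with a UMI at this depth of up to 0.104%. This count sets no limit on cells that express Sox10. Without thinning Sox10 had a UMI in 1 of 2900.

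Of 11 tested pre-granulosa genes 9 rose (median 1.63). Kitl, the ligand of the germ cell receptor KIT, was at 429, 527, 268 and 453 CPM against 112, 133, 56.5 and 168 CPM (1.90 ± 0.112). Fst, which encodes the activin antagonist follistatin, was at 43.3, 14.2, 44.5 and 21.5 CPM against 4.75 to 8.49 CPM (2.09 ± 0.165). Irx3, Irx5, Bmp2 and Lhx2 rose by 1.57 to 2.24 on the log2 scale, and Wnt4 (0.83 ± 0.0595) and Rspo1 (0.43 ± 0.0350) by less. Foxl2, the transcription factor that holds granulosa identity, was at 0.844 ± 0.426 against 0.0726 ± 0.0686 CPM. It had 6 to 23 UMIs in the Wfdc10-high sums and 2 to 9 in the others, so it entered the test through the former, and it was found in 0.414% of thinned Wfdc10-high cells. Rhox8, Wfdc1, Vgll2 and Cst12, which are high in differentiating granulosa cells, had too few UMIs for the test.

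Steroidogenic genes rose as well, 9 of 10 tested (median 1.95). Star, which carries cholesterol into mitochondria, was at 115, 131, 85.6 and 92.5 CPM against 19.0 to 32.3 CPM, and Inha, the inhibin alpha subunit, at 106 ± 20.2 against 17.8 ± 1.85 CPM. Fdxr, the reductase that feeds electrons to mitochondrial P450 enzymes, was at 231 ± 51.7 against 57.7 ± 7.95 CPM. The steroidogenic enzymes Cyp17a1 and Cyp11a1 had the largest fold changes of the listed genes that passed, but their levels were low. Cyp11a1 was at 3.66 ± 2.43 against 0.398 CPM and Cyp17a1 at 5.40 ± 4.53 against 0.498 CPM. Scarb1, a lipoprotein receptor, did not pass at 8.61 against 8.13 CPM.

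Among transcription factors of the early gonad, 5 of 18 tested genes rose and 11 fell, where 29.4% of all tested genes rose and 30.2% fell. Cited2, a co-activator that acts with WT1 on Nr5a1, was at 509, 791, 489 and 371 CPM against 154 to 224 CPM. Nr5a1, the gene of steroidogenic factor 1, was at 31.3 ± 7.51 against 12.9 ± 3.33 CPM (1.29 ± 0.111), and Gata4 at 113 ± 15.2 against 73.7 ± 13.2 CPM. Wt1 itself was 0.26 ± 0.0330 higher on the log2 scale, at 322 ± 27.4 against 269 ± 16.3 CPM. Lhx9, at 313 ± 20.9 against 315 ± 35.8 CPM, and Emx2, at 157 ± 12.2 against 151 ± 14.3 CPM, did not pass. The fallers included Tcf21, at 171, 71.7, 118 and 101 CPM against 564, 304, 421 and 220 CPM (-1.70 ± 0.130), Hmga2, a chromatin protein of proliferating embryonic cells, at 206 against 483 CPM, and Nr2f2, the interstitial factor COUP-TFII, at 65.7 against 158 CPM.

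Most genes of the interstitial progenitor and coelomic epithelium lists were lower. Of the interstitial progenitor genes 13 of 14 tested fell, with Dlk1, a Notch-like imprinted gene, at 127 ± 31 against 684 ± 165 CPM and Col1a1, the main fibrillar collagen, at 35.1 ± 15.7 against 179 ± 67.9 CPM. Ptch1, the hedgehog receptor, was the member that rose (0.36 ± 0.0723). Of the coelomic epithelium genes 6 of 9 fell, with Upk3b at 38.2, 46.9, 38.5 and 71.5 CPM against 114 to 147 CPM, and Aldh1a2, a retinoic acid synthase, at 49.5 against 133 CPM. The 3 that rose were the keratins Krt7, Krt8 and Krt18, with Krt8 at 139 ± 14.5 against 51.5 ± 6.91 CPM.

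Some of these differences depended on which cells stood on the other side. Set against 711 coelomic gate cells (at least 10 UMIs of Upk3b, Upk1b, Krt19, Msln and Lrrn4), 52.6% of 12324 tested genes passed, 26.1% higher and 26.5% lower, and the pre-supporting list kept its direction with 6 of 6 tested members higher (median 3.12). There the interstitial list was split, with 2 of 13 genes higher and 6 lower, and Crabp1 (1.14) and Islr (0.77), an immunoglobulin-domain gene of stromal cells, were higher. Tcf21, at 114 against 97.5 CPM, did not pass there. Against 5882 interstitial gate cells (at least 10 UMIs summed over interstitial genes that include Tcf21, Pdgfra and Nr2f2) 64% of 13835 genes passed, 31.8% higher and 32.3% lower, all 6 tested pre-supporting genes were higher (median 3.92). There 12 of 13 interstitial genes were lower, but that list holds the genes of the gate, whose direction the gate fixed. Both sides of these comparisons were picked by measured genes, and among the Wfdc10-high cells 11.7% to 22.8% also passed the interstitial sum and 2.74% to 6.74% the coelomic sum.

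**Figure D4:**
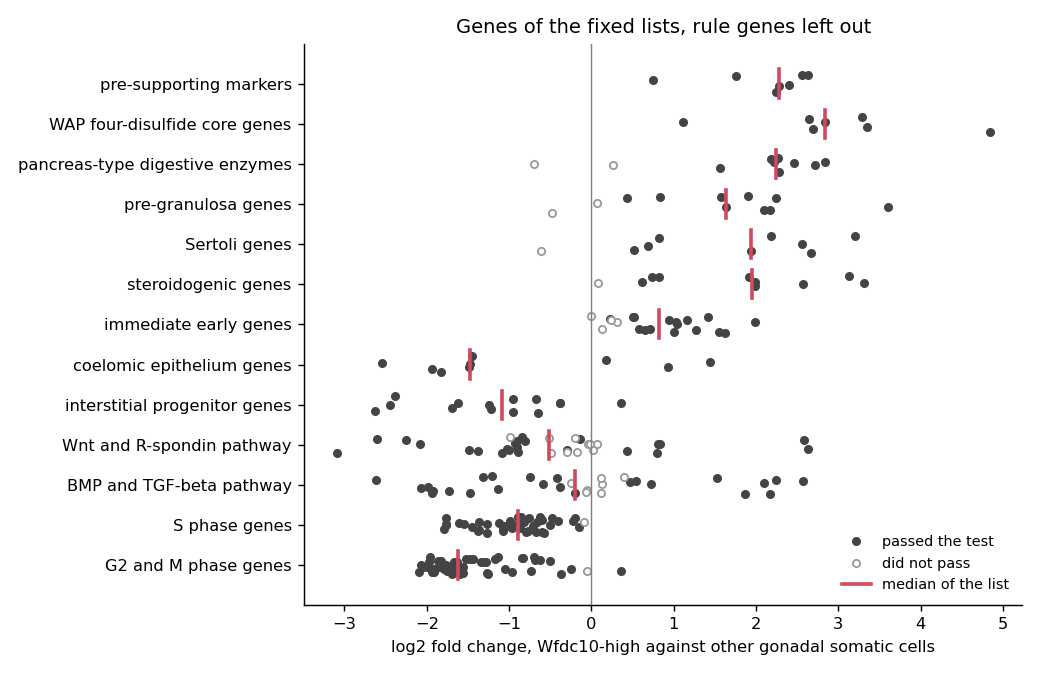
Log2 fold change (horizontal axis) of the tested genes of each list between Wfdc10-high and other gonadal somatic cells of the 4 -KTS KO libraries. Filled points passed an adjusted p of 0.05, open points did not, and red bars are list medians, from 2.84 for the whey acidic protein genes to -1.62 for the G2 and M phase genes.

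Signalling lists held genes that rose and genes that fell. Of all tested genes 29.4% rose and 30.2% fell, so a share of risers near 29.4% does not set a list apart. In the Wnt and R-spondin list, 6 of 33 tested genes rose and 17 fell (median -0.52): the ligands Wnt6 and Wnt4, Rspo1 and the R-spondin receptors Lgr4 (0.80 ± 0.0951) and Lgr5, at 8.12 against 1.36 CPM, were higher, as was Rnf43, which removes WNT receptors from the membrane. Wnt5a, a ligand of non-canonical signalling, was at 32.4 ± 5.02 against 89.8 ± 9.69 CPM, and the secreted inhibitor Sfrp2, at 7.09 ± 5.54 against 59.2 ± 40.4 CPM, had the largest fall chosen by size (-3.09 ± 0.148). Axin2, a transcriptional target of the pathway, did not pass, at 12.1 ± 5.08 against 13.6 ± 4.47 CPM. In the BMP and TGF-beta list 9 of 31 rose and 15 fell. The ligand Bmp2 was at 56.7 ± 13.2 against 12.5 ± 1.39 CPM and the inhibin and activin subunit Inhbb at 20.5 ± 5.63 against 4.33 CPM, whereas the BMP target genes Id2 and Id3 were at 67.3 against 260 CPM and at 235 against 782 CPM. Amhr2, the receptor of anti-Müllerian hormone, was at 272, 314, 237 and 216 CPM against 68.0 to 102 CPM (1.52 ± 0.0813).

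In the Notch list 3 of 13 genes rose and 6 fell, with the target Hes1 at 199 ± 12.4 against 86.7 ± 20.2 CPM and the co-activator Maml2 at 1.13 against 4.47 CPM. In the hedgehog list 2 of 10 rose and 6 fell, and Gli2 and Gli3, which carry the signal to DNA, fell by 0.95 and by 0.93 on the log2 scale. Among 28 growth factor genes 8 rose, a share near the 29.4% of all tested genes, and 16 fell, where 30.2% of all fell. Pdgfa, a ligand for receptors on interstitial cells, was at 230, 240, 240 and 216 CPM against 48.6 to 66.6 CPM (2.03 ± 0.0896), and Igf2, an imprinted growth factor, at 51.4, 80.4, 62.9 and 77.2 CPM against 170 to 239 CPM (-1.61 ± 0.0973). In the retinoic acid list 4 of 14 rose and 10 fell: Aldh1a1, a synthesising enzyme, was at 171 ± 22.9 against 31.3 ± 3.57 CPM, while Crabp1, which binds retinoic acid, was at 4.29 against 30.2 CPM.

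In the junction and keratin list 9 of 13 tested genes rose and 3 fell, with Epcam, an epithelial adhesion molecule, at 55.1 ± 11.4 against 18.6 ± 5.55 CPM, and Cgn, the tight junction protein cingulin, at 39.7 ± 4.95 against 14.5 ± 2.90 CPM. Cdh1, the epithelial cadherin, had a UMI in 0 of 2883 thinned cells and, without thinning, in 3 of 2900. Of 27 basement membrane and matrix genes 6 rose, 15 fell and 6 did not pass, and of all tested genes 29.4% rose and 30.2% fell. Itga6, a laminin receptor subunit, was at 72.5 ± 18.0 against 17.4 ± 2.65 CPM. Smoc2, a matricellular protein, was at 61.5 against 16.5 CPM, and Fn1, the fibronectin gene, at 3.71 against 19.5 CPM. Among the largest falls were further genes of mesenchyme, namely Twist1, at 11.2 against 66.6 CPM, Osr1, at 2.94 against 20.4 CPM, and Mmp2, at 4.09 against 20.8 CPM.

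Genes of the S, G2 and M phases were lower with few exceptions. Of 41 S phase genes 40 fell and none rose, and of 52 G2 and M phase genes 50 fell and 1, the chromatin gene Cbx5, rose. Summed per library, the G2 and M phase genes were at 1906 to 2668 CPM in the Wfdc10-high cells and at 4617 to 5347 CPM in the other cells, without overlap. Mki67 was at 12.9, 12.1, 18.6 and 18.8 CPM against 50.1, 63.4, 69.8 and 58.9 CPM (-1.97 ± 0.101), and after thinning it was found in 3.73% ± 1.19 of cells against 14.9% ± 1.85. Of 11 tested cell cycle inhibitors and D cyclins 5 rose and 5 fell. Cdkn1a, Cdkn1b and Cdkn1c, which encode the CDK inhibitors p21, p27 and p57, were among the risers, Cdkn1a at 121, 195, 180 and 239 CPM against 21.5 to 68.6 CPM, Cdkn1b at 185 ± 36.9 against 55.4 ± 4.73 CPM, and Cdkn1c at 1593 ± 159 against 1004 ± 110 CPM. Among the fallers, Cdkn2c, which encodes the CDK inhibitor p18, was at 0.288 against 1.45 CPM (-2.36 ± 0.335), and the cyclin D1 gene Ccnd1 at 6.70 against 20.2 CPM. Of 20 immediate early genes 16 rose, with Nr4a1 at 25.9 ± 10.3 against 6.48 CPM. Such genes also respond to dissociation of tissue, and the part of handling was not tested.

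Among markers of other cell types, immune markers summed to 0.789 to 1.66 CPM in the Wfdc10-high cells and 0.8 to 2.38 CPM in the others, and 2 to 5 of the 8 were at 0 in the Wfdc10-high cells. Endothelial markers summed to 23.3 to 56.5 CPM against 54.2 to 63.3 CPM. Cdh5 and Tie1 passed upward, but the other cells had been cleared of cells with 10 or more endothelial UMIs and the Wfdc10-high cells had not, and against all other cells without germ gene signal both were lower (-2.33 and -2.47). Perivascular markers summed to 13.4 to 15.7 against 40.5 to 53.1 CPM. Mesonephric duct and tubule markers summed to 165 to 198 against 178 to 218 CPM. Of their 7 tested genes 3 rose and 3 fell, with Pax2 at 4.29 against 1.02 CPM and Pax8 at 0.838 against 4.03 CPM. Erythroid markers summed to 1378 and 2782 CPM in the XY Wfdc10-high cells but to 144 and 125 CPM in the XX ones, and to 147 to 325 CPM in the other cells of the 4 libraries. Hemoglobin-rich cells had been removed from the other cells and not from the Wfdc10-high cells, of which 3 to 4 in each library were past an endothelial, immune or hemoglobin limit, and the part of this in other XY values was not tested.

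The sexes were compared within the Wfdc10-high cells, a contrast that the gate did not use. Of 13515 genes tested between 2 XX and 2 XY libraries, 18, or 0.133%, passed an adjusted p of 0.05, 3 higher in XX (0.0222%) and 15 higher in XY (0.111%), each by at least 2-fold, and 1063 had an unadjusted p under 0.05. Xist, which silences 1 X chromosome, was at 675 and 554 CPM in XX against 0.330 and 0.227 CPM in XY (scaled within this comparison), and Ddx3y, Eif2s3y, Uty and Kdm5d of the Y chromosome were at 0 in XX, so the labels of sex hold. Sry, at 2.05 and 1.82 CPM in XY, was the fifth Y-linked gene. Sox9 was at 28.7 and 31 CPM in XY and at 6.26 and 5.26 CPM in XX (log2 XX against XY -2.36 ± 0.192, adjusted p = 8.78e-04), and was thus among 12 autosomal genes that passed of 13040 tested, or 0.092%.

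The count of 18 was not steady, since DESeq2 called 47, a fit with a replicate block 92 and fits without 1 library 73 to 179. Among the other autosomal genes, Spp1, the gene of the secreted phosphoprotein osteopontin, was at 480 and 422 CPM in XY against 156 and 133 CPM in XX. Fabp4, a fatty acid binding protein, was at 2.05 and 0.625 CPM in XY against 14.7 and 28.1 CPM in XX. Another 6 were globins, among them near-identical copies, and these moved with the erythroid RNA given above. The last 3 were BC004004, at 45.7 and 32.7 CPM in XY against 243 and 146 CPM in XX, and Rnase1 and Ndufa4l2, both lower in XX. With at least 16 Wfdc10 UMIs the 5 named globins (Hbb-y, Hba-a1, Hba-x, Hbb-bh1 and Hba-a2) and Fabp4 (2.94) lost their calls, and with at least 4 UMIs the same globins and BC004004 (2.31) did. With cells thinned to 5000 UMIs Fabp4 (3.33) and Hbb-bh1 lost theirs. For the pre-supporting markers other than Sry no difference passed, and the libraries of 1 sex often lay as far apart as the sexes: Runx1 was at 92.2 and 105 CPM in XY against 92.9 and 66.7 CPM in XX (-0.30 ± 0.200), Wnt6 at 201 and 230 CPM against 243 and 143 CPM (-0.16 ± 0.246). Nr0b1, which is X-linked, was at 33.5 and 47.7 CPM against 17.3 and 7.85 CPM (-1.66 ± 0.327, adjusted p = 0.196), and Fst at 41.3 and 13.5 CPM against 43.4 and 21.1 CPM. With 2 libraries a sex, a p that misses the threshold does not show that these levels were the same.

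Few WT cells passed the same gate. Only XX WT had 2 libraries with at least 20 such cells (29 and 60), so the comparison was made in XX alone, which was decided after the cells had been counted. The WT cells summed to 1373170 UMIs against 32459951 in the XX -KTS KO, so that 3 UMIs in WT stand for 2.185 CPM. Of 12099 genes tested 1383, or 11.4%, passed, 5.17% higher and 6.26% lower in the -KTS KO. By at least 2-fold, 8.03% passed, 3.26% higher and 4.77% lower, and for 59.8% the genotypes did not overlap. Without XX WT library 2, the larger one, 831 passed. The WT cells also lay closer to the cutoff, with a median of 9 and 10 Wfdc10 UMIs against 22 and 17 in the XX -KTS KO libraries. Their median depth was 12640 and 14507 UMIs against 20886.5 and 16716, and their median mitochondrial share 3.78% and 3.92% against 2.55% and 1.87%, in neither case with overlap. With every cell thinned to 5000 UMIs 387 genes passed, and the part of the mitochondrial share was not tested. Of 7 tested erythroid markers 4 were lower in the -KTS KO, with Hbb-y at 222 and 544 CPM in WT against 75 and 59.5 CPM, and the part of this in the other values was not tested.

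Several pre-granulosa genes were higher in the WT cells. Fst was at 1329 and 1003 CPM in WT and at 44.9 and 21.6 CPM in the -KTS KO (log2 -KTS KO against WT -5.11 ± 0.342, adjusted p = 1.37e-04). Foxl2 was at 41.2 and 27.7 CPM against 1.14 and 1.28 CPM (-4.77 ± 0.397, adjusted p = 3.38e-04). Of 15 pre-granulosa genes 9 were lower and none was higher. Among the 9, Rhox8, Wfdc1, Vgll2, Cst12, Aqp5 and Foxl2 had 1 to 37 UMIs in the -KTS KO sum. They entered the test through WT, so they had to differ, and the p of Foxl2 is no support. For the most marked of them the -KTS KO sum held hardly any UMI: Rhox8 had 87 UMIs in the WT sum and 1 in the far larger -KTS KO sum, a ratio of CPM of 2.06e+03 with a counting interval from 360 to 8.22e+04, and Wfdc1 had 66 and 1. Vgll2 (56 against 5 UMIs) and Aqp5, a water channel gene (117 against 22 UMIs), were lower as well. Kitl, at 497 and 712 CPM in WT against 271 and 455 CPM, Bmp2, at 59.6 and 57.4 against 51.3 and 47.6 CPM, and Rspo1, at 275 and 228 against 288 and 308 CPM, did not pass. Of 7 tested Sertoli genes 4 were lower in the -KTS KO, among them Cst9, at 36.7 and 35.9 CPM in WT against 4.39 and 1.37 CPM, and 1, Mro, was higher, at 0 and 7.17 against 43.1 and 28.6 CPM. Cst9 and Ptgds, another of the lower genes, had too few UMIs to enter by the -KTS KO libraries alone, and Mro too few by the WT libraries alone. Each entered with the genotype in which it was higher, so the counts are descriptions.

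The pre-supporting markers themselves were lower in the -KTS KO cells than in the XX WT cells past the same gate. Runx1 was at 192 and 223 CPM in WT against 96.0 and 68.1 CPM (-1.35 ± 0.195, adjusted p = 0.00406), and Wnt6 at 541 and 712 CPM against 251 and 146 CPM (-1.66 ± 0.253, adjusted p = 0.00506). Sprr2d was at 442 and 285 CPM against 21.6 and 27.0 CPM (-3.88 ± 0.234), and Nr0b1 at 174 and 85.0 CPM against 17.9 and 8.01 CPM. Of 6 tested markers 5 were thus lower, and Lor, at 234 and 216 against 171 and 74.5 CPM, did not pass. Sprr2f, which is of the same family as Sprr2d and not on the list, went the other way. It had 0 UMIs in WT and 1134 in the -KTS KO, at least 16-fold higher against a floor of 3 UMIs in WT. How reads were shared out between the copies was not tested. Igf2 was at 318 and 341 CPM against 63.4 and 77.6 CPM, and Cdkn1c at 3661 and 3303 CPM against 1673 and 1523 CPM. Cyp11a1, the side-chain cleavage enzyme, was at 66.4 and 29.7 CPM against 4.34 and 1.46 CPM.

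Interstitial genes were more often higher than lower in the -KTS KO cells, with 8 of 12 tested higher and none lower, but 6 of the 8 had only 0 to 10 UMIs in the small WT sum. Dcn and Col1a1, with 0 and 1 of them, entered the test through the -KTS KO and could hardly come out lower. Tcf21, with 9, had enough in both WT libraries to enter by either genotype. The count is thus a description. Of 7 coelomic epithelium genes 3 were higher and 4 did not pass. Tcf21 was at 6.87 and 6.15 CPM in WT against 119 and 102 CPM (4.11 ± 0.271, adjusted p = 1.29e-04). Dcn, the matrix proteoglycan decorin, had 0 UMIs in WT and was at least 15-fold higher, and Adcy7, an adenylate cyclase, was at least 19.5-fold higher, both against a floor of 3 UMIs over the group. Col1a1 had 1 UMI in WT and 1347 in the -KTS KO, a ratio of 57.0 with an interval from 10.2 to 2.25e+03. Outside these lists, Pdgfa was at 41.2 and 49.2 CPM against 242 and 217 CPM (2.31 ± 0.175), Hes1 at 38.9 and 21.5 CPM against 211 and 209 CPM, Aldh1a1 at 16 and 10.2 CPM against 172 and 143 CPM, and Star at 0 and 4.10 CPM against 86.4 and 93.0 CPM. Wt1, at 238 and 289 against 327 and 285 CPM, Gata4, at 103 and 138 against 121 and 125 CPM, and Nr5a1, at 25.2 and 57.4 against 31.5 and 35.0 CPM, did not pass. Of 50 G2 and M phase genes 7 were higher and none was lower.

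**Figure D5:**
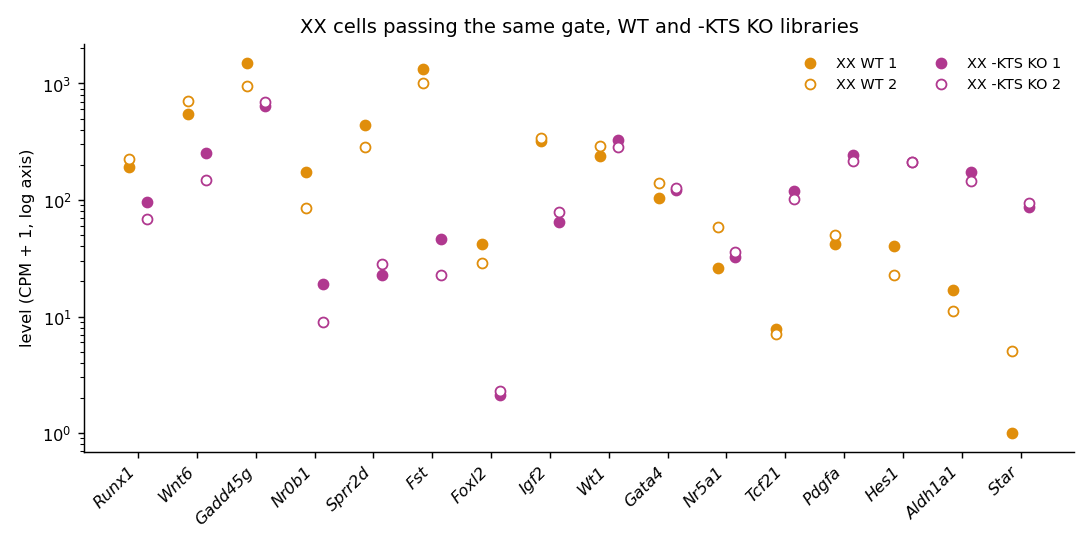
Level (CPM + 1, log axis) of 16 genes in XX cells that passed the same gate, with 1 point for each of the 2 WT and the 2 -KTS KO libraries. Runx1, Wnt6, Gadd45g, Nr0b1, Sprr2d, Fst, Foxl2 and Igf2 are higher in both WT libraries, Tcf21, Pdgfa, Hes1, Aldh1a1 and Star in both -KTS KO libraries, and the genotypes overlap for Gata4 and Nr5a1.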

How the data were processed

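Gonads were dissociated with trypsin and profiled by droplet 3′ single-cell RNA-seq. The labels and the methods name different kit versions. The deposited matrices hold UMI counts per gene and cell that the authors made with Cell Ranger 6.0 on mm10, with no normalization. The members and gene lists were chosen with earlier results of these data known. Counts were summed per library and population and tested with edgeR 4.0.16 (R 4.3.3; TMM, filterByExpr, quasi-likelihood, Benjamini-Hochberg over all genes tested), with the library as a block where both sums came from it. The 7 genes of the gate (Wfdc10, Wfdc13, Cpa1 and the 4 germ cell genes) were left out of the tests. The planned test of -KTS KO against WT could not be made in both sexes and was run in XX alone, with no sex term. Alternatives used DESeq2 1.42.0, other gates, thinning, and Scrublet (scanpy 1.11.5, Python 3.11.15). CPM are TMM-scaled within each comparison. Levels by Wfdc10 bin, sums over a list, and the ratios, bounds and floors against WT use plain totals of UMIs without TMM factors. Upper limits beside a count of 0 (3 counts) cover counting error only. The fits were tested on simulated data with 200 changed genes, where all 4-fold changes were recovered. Of the 2-fold changes 100% were recovered against the other cells and 74.7% between the sexes, and 8.92% and 10.25% of the calls were false, above the nominal 5%. The changed genes were drawn from those above 10 CPM, so recovery of rarer genes was not simulated. The simulated libraries had no differences of their own in the mean of a gene. Far fewer genes changed there than passed against the other cells, so the false shares need not carry over. The XX comparison with WT was not simulated. Named genes were the gate and marker genes, the genes the study names, the 10 largest rises and falls past the test with at least 20 CPM (5 for the other tests), and up to 4 genes of each list, while other list members were named after their values were seen. Positions are from GENCODE M21. Replicates are 2 libraries of each genotype and sex, and some pool embryos. The replicate numbers did not pair XX with XY libraries. Some genes are not reported here.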

Additional observations from a re-analysis of the deposited data

Results flagged for a closer look

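Of 114 quantities tested over the 4 -KTS KO libraries, 5 had 1 library whose gap to the nearest other was above Dixon's 95% critical value as a share of the whole range, and chance alone flags about 1 in 20. Wfdc2 was at 209 CPM in XY library 1 and at 134 to 144 CPM in the other Wfdc10-high sums. Sprr2d was at 26.8 CPM in XX library 2 and at 20.5 to 21.4 CPM elsewhere. Hsd17b3, an enzyme of testosterone synthesis, was at 1.07 CPM in XY library 2 and at 0.685 to 0.725 CPM elsewhere. Bmp2 was at 76.2 CPM in XY library 2 and at 47.4 to 52.2 CPM elsewhere. Cldn3, a claudin of tight junctions, was at 0.634 CPM in XX library 2 and at 2.01 to 2.28 CPM elsewhere.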

How the results depend on the processing

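Against the other gonadal somatic cells, 8833 genes passed. Without the replicate block of libraries 5415 passed, and the other alternatives gave 6384 to 9164. Call and direction were kept in every alternative that tested the gene in 88 of 113 named results of this comparison. The same held in 0 of 7 between XX and XY, and in 6 of 10 between -KTS KO and WT. Alternatives in which a gene was not tested were passed over. With thinned cells 91 of the 113 kept their call, 1 lost it and the rest were not tested. Against WT with at least 16 UMIs 4 of the 10 kept it, 1 lost it and the rest were not tested. Of 8 shares of cells 2 moved by less than 1 SD. The 7 were globins, Fabp4 and BC004004, and the 10 were the largest rises and falls against WT. Sox9 between the sexes, and Fst, Foxl2, Runx1 and Wnt6 against WT, were not followed through the alternatives. Of all genes called against WT, 27.48% were called again with thinned cells. Against the coelomic gate cells Crabp1 (1.14) and Islr (0.77) turned upward, and Tcf21 (0.17) and the perivascular gene Rgs5 (0.38) lost their calls with a change of sign. Against all other cells without germ gene signal Nrarp (-1.78), Cdh5 (-2.33), Tie1 (-2.47), Fcer1g (-4.69) and Alas2 (-2.16) turned downward and Klf2 (-0.11) lost its call, and those cells include endothelial, immune and erythroid cells by construction. Between XX and XY, 18 genes passed, with DESeq2 47, without a filter 324, with at least 16 Wfdc10 UMIs 9, with at least 4 UMIs 10 and with a replicate block 92, although same-numbered libraries did not deviate together (r = 0.0165). Leaving out 1 library gave 73 to 179, where the lone library was assumed to vary like the others. In the XX comparison with WT, 1383 passed, with at least 16 UMIs 329 (from WT sums of only 1 and 12 cells, under the minimum of 20), thinned 387, without a filter 2350, with a replicate block 1452, and without 1 library 831 to 1500. The cause of these changes was not tested. The mean share of cells in the gate was 18.29% with at least 4 UMIs and 8.55% with at least 16. Without thinning, the differences in share of cells were 54.1 percentage points for Runx1, 65.5 for Wnt6, 17.81 for Nr0b1, 10.17 for Fst, -13.16 for Mki67 and -26.68 for Tcf21.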
